A study of Rattus norvegicus with 20 samples.

Results

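Mt-co1 (ENSRNOG00000034234), Mt-co2 (ENSRNOG00000030371), Mt-co3 (ENSRNOG00000030700), Mt-cyb (ENSRNOG00000031766), Mt-atp6 (ENSRNOG00000031979) and Mt-atp8 (ENSRNOG00000033299) are the mitochondrially encoded subunits of cytochrome c oxidase, of the cytochrome bc1 complex and of ATP synthase. These 6 genes were picked by Ensembl identifier out of the 32883 genes of the deposited table, 23538 of which had reads in some library. All 6 were present in every library, and all passed the filter on low counts. RNA was measured in gastrocnemius, a calf muscle of mixed fibre types, and in white fat of the abdomen from the same 10 rats, which gave 10 muscle and 10 adipose libraries. The rats were 8 months old when obtained and came from a Fischer 344 x Brown Norway cross in the colony of the National Institute on Aging; they spent 2 weeks on a reversed light cycle, and no treatment is named. Every sample is labelled male, whereas the design text counts 5 males and 5 females, so no comparison by sex was made.

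The mitochondrial genome encodes a small set of proteins, all of them core parts of the respiratory chain or of ATP synthase, while the other subunits of these complexes come from nuclear genes. Its protein genes are read as long polycistronic transcripts from both strands, which are cut at the transfer RNAs between genes and, with the exception of Mt-nd6, polyadenylated, so they are captured by poly(A) selection. Mt-co1, Mt-co2 and Mt-co3 form the catalytic core of complex IV, which passes electrons from cytochrome c to oxygen. Mt-cyb is the mitochondrially encoded subunit of complex III, which passes electrons from ubiquinol to cytochrome c. Mt-atp6 forms the proton path of ATP synthase, complex V, and Mt-atp8 is a small subunit of its membrane part. Mt-atp8 and Mt-atp6 overlap and share a bicistronic messenger RNA, so a read in the overlap cannot be given to either gene alone. Muscle fibres burn fuel for contraction and are rich in mitochondria, whereas a white adipocyte has few mitochondria around a large lipid droplet. In bulk tissue, more mitochondria per cell, more transcripts per mitochondrion and a different mix of cells cannot be told apart.

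Library totals lay between 8446753 and 20141854 counts for muscle, and between 11067755 and 25904309 for adipose tissue. A member had at least 35046 counts in each library, and the widest 95% Wilson interval of a share was 0.0346 percentage points, which covers counting error only. Adipose library 3 held the highest share of mitochondrial transcripts, muscle library 2 the highest muscle ratios of Mt-co1 to the other members, and muscle library 6 a low ratio of Mt-cyb to Mt-atp8; values without these animals stand beside the results they touch. Genes nearly restricted to muscle in these data (170 genes, a set taken from these same libraries) took 27.9% to 45.4% of the counts in muscle libraries and 0.0371% to 0.667% in adipose libraries. The 153 adipose-restricted genes took 4.75% to 12.7% of adipose counts and 0.0222% to 0.0490% of muscle counts. No named marker of either tissue could be checked, because 0 identifiers of the table match the gene table used here.

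The first question was how much of each library these transcripts took up. Together the 6 transcripts took overlapping portions of the reads in muscle and in fat. In muscle they took 8.13% of the counts in the lowest library, 11.4% at the median and 14.2% in the highest (mean 11.04% ± 2.19, SD, n = 10). In adipose tissue they took 5.96%, 9.31% and 23.4% (mean 10.6% ± 5.08, SD, n = 10). The muscle libraries thus lay inside the range of the adipose libraries. The highest value, 23.4%, belonged to adipose library 3, and the next adipose library, 9, held 13.4%. Without library 3 the adipose mean was 9.21% ± 2.52 (SD, n = 9).

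**Figure D1:**
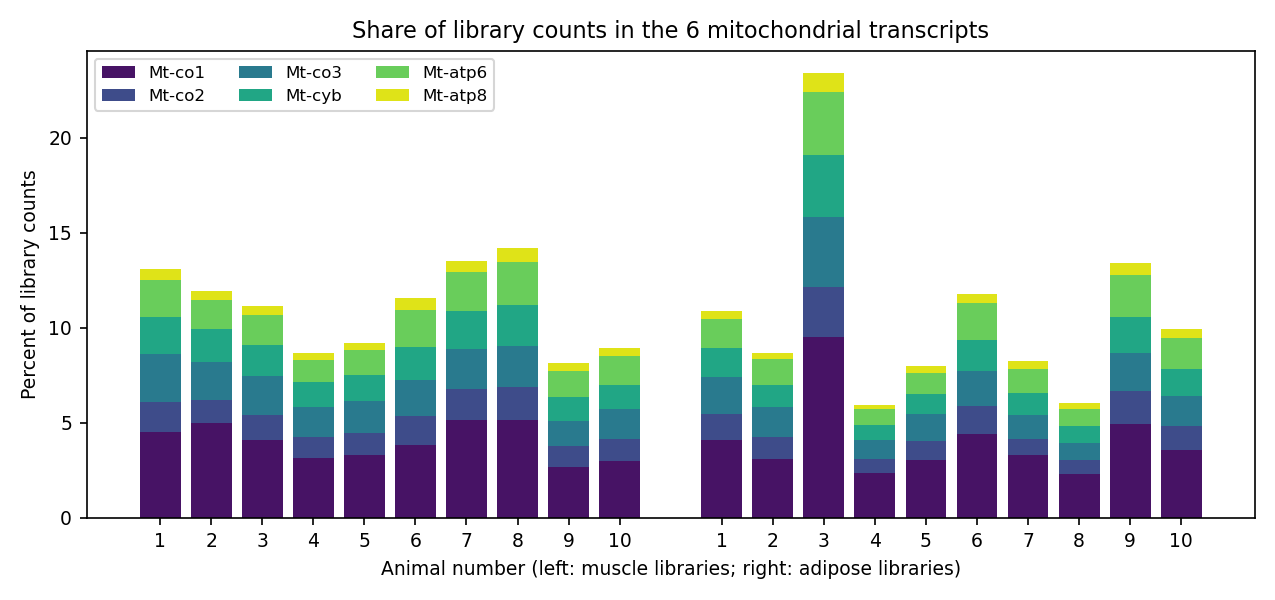
Percent of library counts (vertical axis) in each of the 6 transcripts, stacked, for the 10 muscle and the 10 adipose libraries by animal number. Muscle bars reach 8.13% to 14.2%; adipose bars reach 5.96% to 13.4%, except that of animal 3 at 23.4%.

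In the oxidase, Mt-co1 took 2.66% of the muscle library with the least of it, 3.95% at the median and 5.16% at most, against 2.31%, 3.43% and 9.50% in adipose tissue. Mt-co2 took 1.10%, 1.28% and 1.72% of muscle counts, against 0.697%, 1.23% and 2.66% of adipose counts. Mt-co3 took 1.35%, 1.93% and 2.51% of muscle counts, against 0.892%, 1.56% and 3.66% of adipose counts. For each of the 3 oxidase genes the tissues overlapped, and adipose library 3 was the highest of all 20 libraries.

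Mt-cyb, an electron-carrying subunit of complex III, took 1.26%, 1.67% and 2.19% of muscle counts (lowest, median and highest library), against 0.832%, 1.30% and 3.26% of adipose counts. Mt-atp6 took 1.16%, 1.56% and 2.27% of muscle counts, against 0.802%, 1.47% and 3.33% of adipose counts. Mt-atp8 took 0.357%, 0.486% and 0.702% of muscle counts, against 0.252%, 0.425% and 0.996% of adipose counts. Here too the ranges overlapped and adipose library 3 was the highest. Among the other adipose libraries, 9 was the highest for all 6 genes, and the lowest was library 4 or 8. In muscle, library 8 was the highest for each gene except Mt-co3, where library 1 was.

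For each of the 6 genes the tissues overlapped on library totals, where 56.3% of all tested genes had tissues that did not overlap. In no gene was the difference in share between the tissues larger than the spread between animals. Muscle minus adipose, the mean difference ran from -0.0865 percentage points for Mt-co1 (SD 2.38 over animals) to 0.181 for Mt-co3 (SD 0.818). Exact two-sided sign-flip permutation tests over the 10 animals gave p = 0.510 for Mt-co3, 0.549 for Mt-cyb, 0.697 for Mt-atp8, 0.783 for Mt-co2, 0.820 for Mt-atp6 and 0.912 for Mt-co1. Mt-co1 was the higher in muscle in 6 of 10 animals and each of the other 5 genes in 7 of 10. These tests do not show that the tissues were alike. On the log2 scale the 95% interval, obtained by inverting the exact test, ran from -0.48 to 0.58 for Mt-co1, which covers a muscle share between 0.716 and 1.49 times the adipose share. For Mt-co3 it ran from -0.22 to 0.68, or 0.860 to 1.60 times.

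Animal 3 pulled these means. Without it each gene had a higher mean share in muscle, by 0.0956 percentage points for Mt-atp8 to 0.506 for Mt-co1, which changed the sign for Mt-co1. None of the 6 differences passed the exact sign-flip test then either; the lowest p was 0.0898, for Mt-co3, and the highest 0.355, for Mt-co1 (n = 9).

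**Figure D2:**
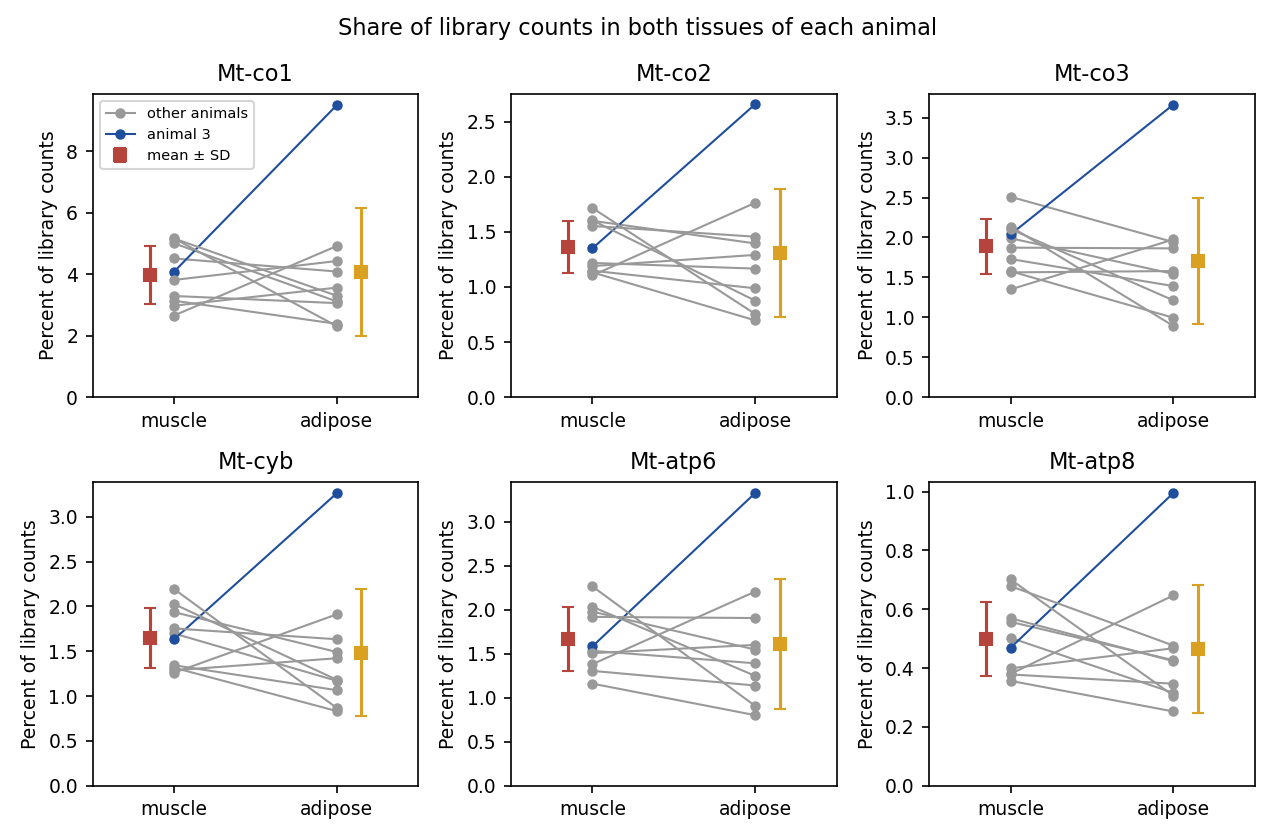
Percent of library counts (vertical axis, from 0) of each transcript in muscle and adipose tissue, with a line for each animal and squares with bars for the mean ± SD (n = 10, red for muscle and yellow for adipose tissue). The line of animal 3 (blue) rises to the highest adipose value in every panel, and the other lines cross.

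The result was different once the libraries were scaled to each other by the bulk of their genes. TMM factors (trimmed mean of M values) set the levels so that the typical gene is even between libraries. A factor below 1 raises the value of every gene in a library, and a factor above 1 lowers it. The 10 genes with the most reads took 27.9% to 34.3% of muscle counts and 9.50% to 32.6% of adipose counts. Their part in the factors was not tested. The factors were 0.561 to 0.748 in muscle and 1.21 to 1.94 in adipose libraries. Moving from library totals to TMM factors shifted the log2 fold change of the median tested gene by 1.30 towards muscle, since library totals minus TMM was -1.30. Fold changes of the mitochondrial genes moved by nearly the same amount.

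With TMM factors, Mt-co1 stood at 42764 CPM (counts scaled to a common library size) in the lowest muscle library, 65948 at the median and 81299 in the highest, against 12261, 22476 and 78761 CPM in adipose tissue. Mt-cyb stood at 19941, 24348 and 33893 CPM in muscle, against 4277, 8483 and 27048 in adipose tissue. Mt-atp8 stood at 5401, 7096 and 12111 CPM in muscle, against 1298, 2714 and 8252 in adipose tissue. For each of the 6 genes, adipose library 3 was the 1 adipose library above the lowest muscle library, so the tissues overlapped with all 20 libraries in and not without it. Of all tested genes, 45.5% had tissues that did not overlap on this scale with all libraries in; without adipose library 3 it was 47.3%, with 21.7% higher in muscle.

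All 6 genes were higher in muscle on this scale. The log2 fold changes were 1.18 (SE 0.32) for Mt-co1, 1.29 (SE 0.29) for Mt-co2, 1.37 (SE 0.29) for Mt-co3, 1.37 (SE 0.30) for Mt-cyb, 1.28 (SE 0.30) for Mt-atp6 and 1.33 (SE 0.29) for Mt-atp8, or 2.26 to 2.59 times. In edgeR's quasi-likelihood test, adjusted by Benjamini-Hochberg over 13806 genes, the outcome was adjusted p from 0.000180 for Mt-co3 to 0.00184 for Mt-co1. This fit did not pair the tissues of a rat. With the tissues paired, the log2 fold changes were 1.36 to 1.54. The median of the 6 unpaired log2 fold changes was 1.31, beside -0.09 for all genes tested. Of all genes tested, 79.8% were called in either direction and 37.6% were called higher in muscle. The 6 of 6 genes called higher in muscle are to be read against this background. Each gene also correlated across libraries with the median of the 6, which includes it, at r = 0.971 to 0.998. The calls are therefore not 6 separate results, here or in the fits below.

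With library totals in place of TMM factors, 0 of the 6 genes were called in edgeR, where 86.5% of all genes tested were called, 12.3% of all genes as higher in muscle and 74.1% as higher in adipose tissue. None of the 6 had an unadjusted p below 0.05 in that fit; adjusted p ran from 0.554 to 0.912. The log2 fold changes were then -0.03 (SE 0.26) for Mt-co1, 0.06 (SE 0.22) for Mt-co2, 0.15 (SE 0.23) for Mt-co3, 0.15 (SE 0.23) for Mt-cyb, 0.05 (SE 0.24) for Mt-atp6 and 0.10 (SE 0.23) for Mt-atp8. The call thus rested on the scaling, and for Mt-co1 the direction too. A change of scaling moves all genes nearly alike, so the place among all genes is nearly fixed by construction: between 79.8% and 83.0% of the tested genes had a lower muscle-over-adipose fold change than a given member with TMM factors, and between 81.6% and 84.2% with library totals.

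Adipose library 3 lowered these fold changes. Without it, with TMM factors, they were 1.56 for Mt-co1, 1.61 for Mt-co2, 1.71 for Mt-co3, 1.72 for Mt-cyb, 1.60 for Mt-atp6 and 1.66 for Mt-atp8, or 2.95 to 3.30 times, and 6 of 6 genes were called higher in muscle, beside 38.7% of all genes tested. With library totals and without it they were 0.20 to 0.36, and 0 of 6 genes were called, where 87.6% of all genes tested were called and 12.2% were called higher in muscle (edgeR adjusted p from 0.0923 for Mt-cyb to 0.372 for Mt-co1; 0 had an unadjusted p below 0.05).

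**Figure D3:**
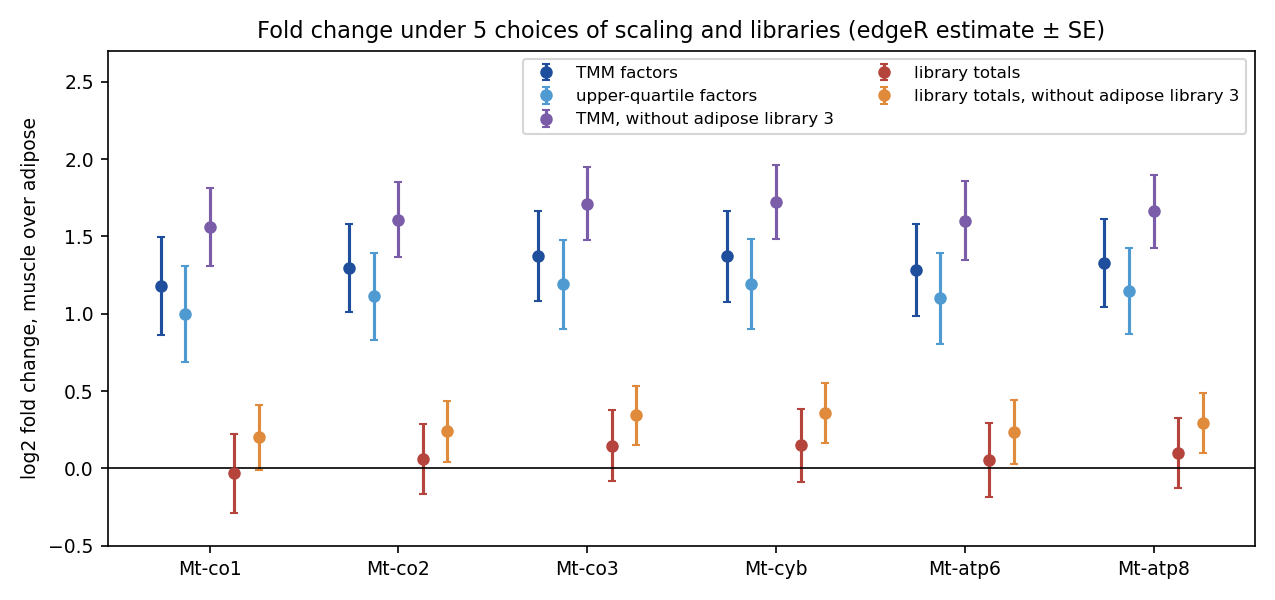
Log2 fold change of muscle over adipose tissue (vertical axis; points are edgeR estimates, bars are SE) for each transcript under 5 choices of scaling and libraries. Estimates with TMM factors lie between 1.18 and 1.37 and those with library totals between -0.03 and 0.15.

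Within a library, the rank of these transcripts by read count differed between the tissues. Read counts grow with transcript length, and lengths were not used here, so ranks compare reads and not molecules. Mt-co1 was the gene with the most reads in 9 of 10 adipose libraries and in 0 of 10 muscle libraries, where it ranked 2 to 4. It was among the 10 genes with the most reads in 10 of 10 libraries of each tissue. Mt-co3 was so in 10 of 10 adipose and 9 of 10 muscle libraries, Mt-cyb in 10 and 6, Mt-atp6 in 10 and 5, and Mt-co2 in 9 and 2. Mt-atp8 ranked 13 to 25 in adipose tissue and 21 to 37 in muscle. Adipose libraries had 4 or 5 of the 6 genes among their 10 leading genes, and muscle libraries 1 to 5, although the shares of reads overlapped.

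The 10 leading genes of adipose library 3 took 32.6% of its counts, and 5 mitochondrial members made up 22.4 percentage points of this. The other adipose libraries had 9.50% to 20.97% in their 10 leading genes, with 4.97 to 12.8 points from members. With the 6 members removed from the list and from the total, the 10 leading genes took 18.5% in library 3 and 6.32% to 13.9% in the other adipose libraries. Library 3 had the lowest total of the adipose libraries, 11067755. It also had the most counts in muscle-restricted genes, 0.667% of its total, where these genes stood at a median of 1.57% of their muscle level. In adipose library 1 these genes took 0.530% of the total, at a median of 1.41% of the muscle level, and the 6 members took 10.9% of counts. The part of depth and of muscle-restricted genes in the high share of library 3 was not tested.

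The second question was whether the 6 transcripts kept fixed proportions to each other. In adipose tissue the ratios varied less than the shares. In muscle they did so at the median, while the ranges of spread overlapped at their ends. Across adipose libraries the SD of the log2 share of a gene was 0.58 to 0.61, and that of the log2 ratio of any 2 genes 0.07 to 0.26, over 15 pairs. Without library 3 the SD was 0.37 to 0.48 for shares and 0.07 to 0.28 for ratios. Across muscle libraries the SD was 0.25 to 0.36 for shares (median 0.304) and 0.10 to 0.25 for ratios (median 0.158). Counting error alone is at most 0.0069 for a ratio on the same scale. In adipose tissue the highest share was 3.81 to 4.15 times the lowest, whereas the highest ratio was 1.16 to 1.79 times the lowest. Without library 3 these were 2.13 to 2.75 times for shares and 1.15 to 1.79 times for ratios.

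As a portion of the counts of the 6, Mt-co1 made up 35.8% ± 2.79 of muscle and 38.1% ± 1.71 of adipose values (SD, n = 10). Mt-co2 made up 12.4% ± 1.0 and 12.3% ± 0.868, and Mt-co3 17.2% ± 1.40 and 16.1% ± 1.23. Mt-cyb made up 14.9% ± 0.433 and 13.9% ± 0.372. Mt-atp6 made up 15.1% ± 1.47 and 15.1% ± 1.05, and Mt-atp8 4.51% ± 0.546 and 4.42% ± 0.503. Mt-cyb had the steadiest portion in both tissues and was the higher in muscle in 10 of 10 animals; the portion of Mt-co1 was the higher in adipose tissue in 9 of 10 animals, animal 2 being the exception. These portions are a description without a test, since each depends on the other 5.

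Ratios of counts between 2 genes do not depend on any scaling, and gene length cancels when the tissues are compared. The ratio of Mt-co1 to Mt-cyb was 2.11 in the lowest muscle library, 2.37 at the median and 2.95 in the highest, against 2.51, 2.73 and 2.91 in adipose tissue. Muscle minus adipose, the log2 ratio differed by -0.18 (SD 0.13, 95% interval -0.26 to -0.08), and it was lower in muscle in 9 of 10 animals (two-sided exact sign-flip test, p = 0.00781, adjusted over 15 pairs 0.0586). The ratio of Mt-co1 to Mt-co3, 2 subunits of the same complex, was 1.80, 2.00 and 2.51 in muscle, against 2.02, 2.39 and 2.72 in adipose tissue. It also differed by -0.18 (SD 0.19, 95% interval -0.29 to -0.04; exact p = 0.0215, adjusted over 15 pairs 0.0806). The tissues overlapped in both ratios.

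The ratio of Mt-cyb to Mt-atp6 was higher in muscle by 0.10 on the log2 scale (SD 0.12) in 9 of 10 animals, and that of Mt-co3 to Mt-atp6 by 0.09 (SD 0.09) in 8 of 10. Both had an adjusted p of 0.0586 over 15 pairs in the exact sign-flip permutation test. In all, 4 of 15 pairs had an unadjusted p below 0.05 and 0 an adjusted one. The largest mean difference of a pair was -0.184 on the log2 scale, for Mt-co1 to Mt-cyb. For the pair that shares a messenger RNA, Mt-atp6 to Mt-atp8, the ratio was 2.83, 3.41 and 3.78 in muscle, against 2.95, 3.37 and 4.41 in adipose tissue. Its log2 difference was -0.03 (SD 0.27, 95% interval -0.23 to 0.14; exact p = 0.719, adjusted over 15 pairs 0.829).

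Animal 2 was the 1 animal with a higher muscle than adipose ratio of Mt-co1 to Mt-co2, Mt-co3, Mt-cyb and Mt-atp6; for Mt-co1 to Mt-atp8 animal 7 was so too. Muscle library 2 held the highest muscle ratio of Mt-co1 to each of the other 5 genes, such as 4.11 to Mt-co2 and 3.26 to Mt-atp6, and Mt-co1 made up 41.9% of the counts of the 6 there. Without animal 2, the ratios of Mt-co1 to Mt-co2, Mt-co3, Mt-cyb and Mt-atp6 were lower in muscle in every animal left. The exact sign-flip permutation test then gives its smallest possible p (n = 9, adjusted over 15 pairs 0.0146 for each). Leaving out the only exception fixed this outcome, so these p-values add nothing to the signs. The number of pairs past the test was thus 0 with this animal and 4 without it. Without animal 6 it stayed at 0, and the log2 difference moved from 0.066 to 0.119 for Mt-cyb to Mt-atp8 and from 0.064 to 0.127 for Mt-co3 to Mt-atp8.

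**Figure D4:**
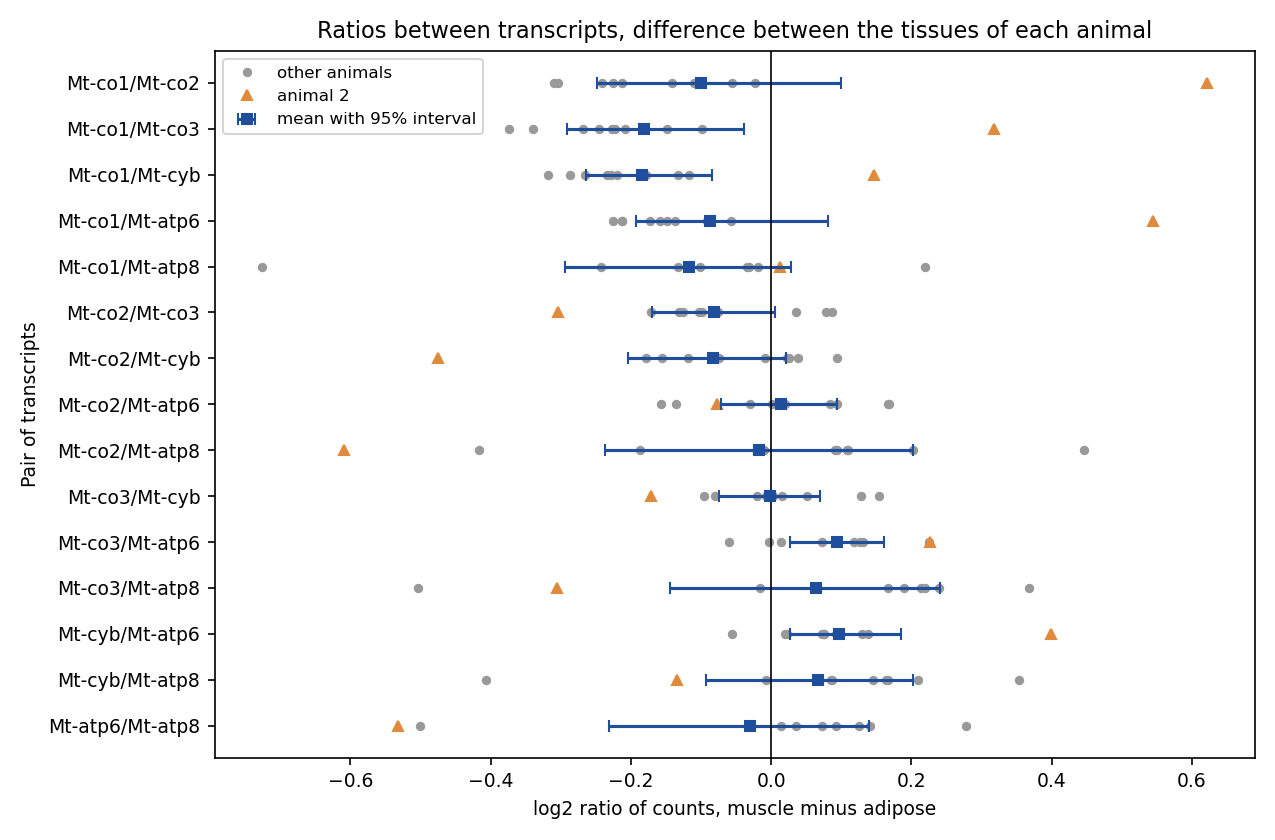
Difference in the log2 ratio of counts between muscle and adipose tissue (horizontal axis) for the 15 pairs of transcripts; squares are means over 10 animals with 95% intervals from the exact sign-flip test, grey points are animals and orange triangles are animal 2. Animal 2 lies right of 0 for Mt-co1 against each of the other genes, while the means of these 5 pairs lie left of it.

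Animals with a large mitochondrial share in muscle did not stand out as having a large share in fat. Over 10 animals, Pearson's r between the log2 share in muscle and that in adipose tissue was -0.14 for Mt-co1, -0.11 for Mt-co2, 0.06 for Mt-co3, -0.12 for Mt-cyb, 0.03 for Mt-atp6 and -0.04 for Mt-atp8. Spearman's rho ran from -0.33 for Mt-co1 to 0.05 for Mt-atp6. Permutation p-values adjusted over the 6 genes were 0.932 for each r and 0.918 for each rho. Without the 2 animals farthest from the muscle median, r ran from -0.06 for Mt-atp6 to 0.36 for Mt-co2. With 10 animals a moderate relation could go undetected.

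Among muscle libraries, the share of Mt-co1 was lower where muscle-restricted genes took more of the counts, a relation looked for after the library values had been seen. With both measures as percent of the counts outside the 6, Spearman's rho over the 10 libraries was -0.96 for Mt-co1, -0.85 for Mt-cyb, -0.84 for Mt-co3, -0.77 for Mt-co2, -0.73 for Mt-atp8 and -0.71 for Mt-atp6. The restricted genes made up 31.7% to 49.4% of that total, so a larger restricted portion lowers the other value by arithmetic, and these values are a description with no test. With each transcript taken instead as percent of the counts outside both the 6 and the restricted genes, rho was -0.87 for Mt-co1, -0.73 for Mt-cyb, -0.49 for Mt-atp8, -0.47 for Mt-co3, -0.36 for Mt-atp6 and -0.26 for Mt-co2. Exact permutation p-values adjusted over 12 relations (6 genes in both tissues) were 0.0261 for Mt-co1, 0.121 for Mt-cyb and 0.492 for each of the others. The counts outside both sets still enter both measures, and the relation and the restricted genes were chosen from these libraries. These p-values therefore lack a valid null, and no conclusion is drawn from them. Pearson's r was -0.55 for Mt-co1 and ran from -0.22 to 0.11 for the other genes (adjusted permutation p from 0.685 to 0.928, with the same limit). Without libraries 2 and 8, which lay farthest from the median of the restricted genes, r was -0.96 for Mt-co1 and ran from -0.85 for Mt-cyb to -0.45 for Mt-atp8. The size of r thus rested on these libraries. Adipose tissue had rho of 0.25 to 0.37 with its own restricted genes (adjusted exact permutation p = 0.492 for each, with the same limit).

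**Figure D5:**
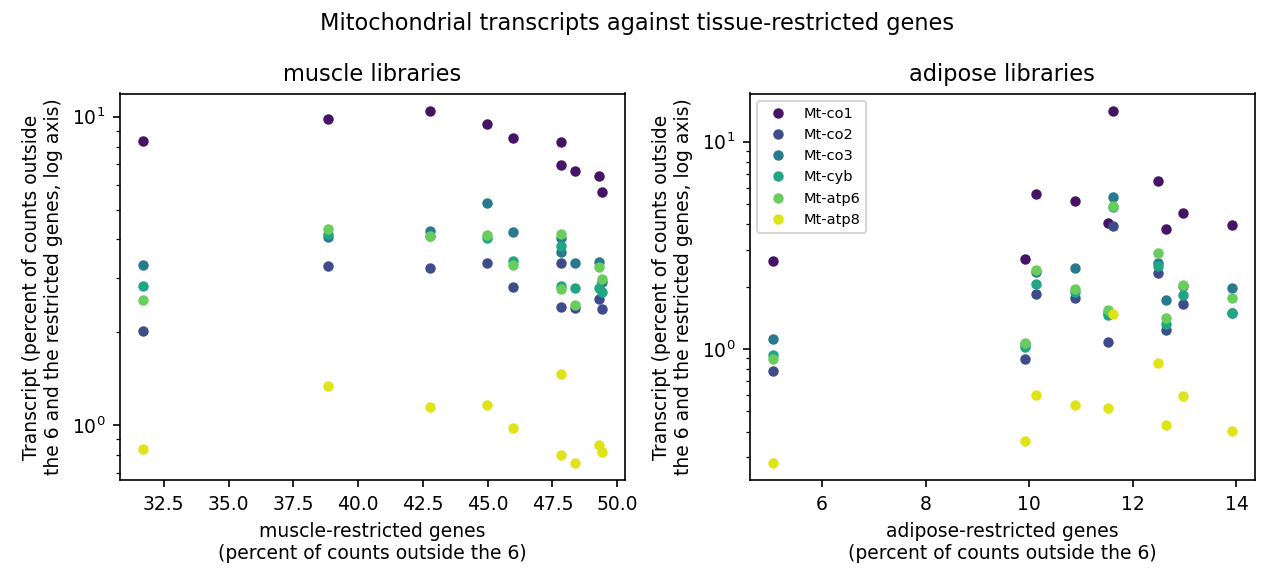
Each transcript as percent of the counts outside the 6 and outside the restricted genes (vertical axis, log scale) against the summed share of genes restricted to the same tissue (horizontal axis), for 10 muscle libraries (left) and 10 adipose libraries (right). The rank correlation is -0.87 for Mt-co1 in muscle, where the library farthest left lies off the slope of the others, and 0.25 to 0.37 in adipose tissue.

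Outside the 6, the genes with the most similar pattern were ENSRNOG00000029707 and ENSRNOG00000031033, which the files do not pair with names. With the tissue means removed, their log2 CPM (TMM factors) had r = 0.99 and r = 0.98 with the median of the 6 over the 20 libraries, among 8289 other genes with at least a mean of 5 CPM in both tissues. Of these genes, 8 had r above 0.9. ENSRNOG00000029707 took 1.22% to 2.00% of muscle counts, 0.776% to 1.64% of the counts of 9 adipose libraries and 2.84% of adipose library 3. ENSRNOG00000031033 took 0.838% to 1.51%, 0.481% to 1.12% and 1.93%. Since both genes were picked for likeness over all 20 libraries, their high value in adipose library 3 follows from the choice. All genes of a library share its depth and composition, and r is a description here.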

How the data were processed

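Poly(A) libraries were made from 300 ng of total RNA, extracted from muscle (10 mg) or adipose tissue (30 mg), per the labels' protocols. Per the submitters' processing notes, bcl2fastq, STAR, featureCounts and rn6 were used; versions, annotation, strandedness and the handling of multi-mapping reads are not given in sources used here. Reads shared with nuclear copies of mitochondrial genes, or by Mt-atp8 and Mt-atp6, may be split or dropped. The authors deposited expected counts per gene, not normalised; 25.3% of values above 0 were whole within 0.005. Shares used deposited values; count tests used rounded ones.

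Fits used R 4.3.3 with edgeR 4.0.16 (filterByExpr, TMM, robust quasi-likelihood test, Benjamini-Hochberg below 0.05 over all tested genes, no block), with limma 3.58.1 and DESeq2 1.42.0 as alternatives. SEs are the estimate over the root of F. Counts were also simulated with both groups drawn from the adipose mean profile (14718 genes tested). On these the fit called 89 of 100 genes changed 2-fold, 98 of 100 changed 4-fold and 3 unchanged genes. The simulation held no muscle profile and few changed genes, so it does not test the scaling between the tissues. Single values were compared by exact sign-flip tests over animals, whose smallest p is 0.00195, and correlations by 100000 permutations, or by all orderings for rho with the restricted genes (exact p). Per the design text both tissues came from the same rats, and equal numbers in the titles were taken to mark the same rat. Deviations over 8295 genes correlated at -0.22 to 0.42 (median 0.12) within animals so numbered and at a median of -0.03 between them. Restricted genes had a median of at least 20 CPM and 100 times the other tissue's.

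The members, given by identifier, and the lists were chosen with earlier results of these data known. The lists of respiratory chain genes and of cell type markers could not be run, since 0 identifiers matched the reference table. The text names all members and the 2 other genes with the most similar pattern.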

Additional observations from a re-analysis of the deposited data

Results flagged for a closer look

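In 46 groups of 10 libraries (per tissue, 6 shares and 15 ratios on the log2 scale, and the summed share both as percent and as log2), the extreme library at either end was set against its neighbour, with the gap divided by the range and compared with Dixon's 95% critical value of 0.466. Chance gives about 1 in 20 groups, and 2 were found. The summed share of the 6 transcripts was 23.4% in adipose library 3 and 13.4% in the nearest library, a gap of 0.573 of the range. On the log2 scale the gap of the summed share was 0.407, below the limit, and no single share of this library passed it. In muscle library 6 the log2 ratio of Mt-cyb to Mt-atp8 was 1.37, and 1.64 in the nearest library, a gap of 0.535 of the range; Mt-atp8 made up 5.86% of the counts of the 6 there.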

How the results depend on the processing

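The settings without adipose library 3, without animal 3, and with library totals and the replicate block or without adipose library 3 were chosen after seeing the data. With the replicate block, which pairs the tissues of a rat, and TMM factors the log2 fold changes were 1.36 to 1.54 and no call among the 6 genes changed; leaving out 1 animal at a time gave 1.06 to 1.73 over the 6 genes, with 6 called each time. Scaling decided the calls. On library totals the log2 fold changes were -0.0310 for Mt-co1, 0.0618 for Mt-co2, 0.15 for Mt-co3, 0.15 for Mt-cyb, 0.0522 for Mt-atp6 and 0.10 for Mt-atp8, with 0 called. On library totals with the replicate block they were 0.0596, 0.16, 0.24, 0.24, 0.14 and 0.18 in this order, with 0 called, and on library totals without adipose library 3 they were 0.20, 0.24, 0.34, 0.36, 0.23 and 0.29, with 0 called. Over all genes, library totals called 12.3% with more in muscle and 74.1% with more in adipose tissue, against 37.6% with more in muscle by TMM factors.

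The difference in share, muscle minus adipose, passed the exact sign-flip test on TMM-scaled totals for each gene. It was 3.48 percentage points for Mt-co1, 1.27 for Mt-co2, 1.82 for Mt-co3, 1.59 for Mt-cyb, 1.55 for Mt-atp6 and 0.474 for Mt-atp8. These totals carry the scaling factors, which lay between 0.561 and 0.748 in muscle and between 1.21 and 1.94 in adipose libraries. Mt-co1, at -0.0865 percentage points on plain totals, also changed sign as a log2 difference (0.0553). In percentage points it changed sign without animals 1, 3 and 5 (0.557), without animal 3 (0.506) and without animal 9 (0.155). Mt-co2 changed sign without animal 7 (-0.0175) or 8 (-0.0434), and Mt-atp6 without animal 7 (-0.0215) or 8 (-0.0851). Mt-atp8 did so without animal 8 (-0.00680). Leaving out 1 animal at a time, the difference ran from -0.413 to 0.506 for Mt-co1, -0.0434 to 0.209 for Mt-co2, 0.0630 to 0.382 for Mt-co3, 0.0317 to 0.360 for Mt-cyb, -0.0851 to 0.260 for Mt-atp6 and -0.00680 to 0.0956 for Mt-atp8, and no gene passed the test.

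Of the 15 ratios, 4 passed without animal 2, the only animal of opposite sign in those 4, which fixed that outcome. With no replicate block, 1 passed (Mt-co1 to Mt-cyb). Leaving out 1 animal at a time gave 0 to 4. Without animal 2 the log2 ratio difference changed sign for Mt-co2 to Mt-atp8 (0.0485), Mt-co3 to Mt-cyb (0.0164) and Mt-atp6 to Mt-atp8 (0.0252). The same pairs changed sign without animal 6 (0.0271, 0.00801 and 0.0216). Mt-co2 to Mt-atp8 also did so without animal 1 (0.00161), and Mt-co3 to Mt-cyb without animal 8 (0.00624). Mt-co2 to Mt-atp6 changed sign without animal 4 (-0.00378) or 7 (-0.00396). Leaving out 1 animal at a time, the log2 ratio difference ran from -0.0687 to 0.0485 for Mt-co2 to Mt-atp8 and -0.0197 to 0.0164 for Mt-co3 to Mt-cyb. It ran from -0.0648 to 0.0252 for Mt-atp6 to Mt-atp8 and -0.00396 to 0.0322 for Mt-co2 to Mt-atp6. The cause was not tested. Pearson's r across tissues changed sign on log2 CPM with TMM factors for Mt-co1 (0.0115), Mt-co2 (0.0191), Mt-cyb (0.0297) and Mt-atp8 (0.0717), without animals 1, 3 and 5 for Mt-co3 (-0.467) and Mt-atp6 (-0.0226), and without animal 3 for Mt-co3 (-0.103) and Mt-atp8 (0.000291).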
